A study of Xenopus laevis with 12 samples.

Results

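The voltage-gated and related channel genes were taken as every gene of the deposited log2 expression table whose symbol begins with kcn and a letter, scn with a pore or beta subunit number, cacna, cacnb, cacng, or hcn and a number. The rule found 123 of 26050 genes, and 119 of these passed the filter on low counts, against 25553 genes in all. The 4 channel genes that did not pass were kcnk2.L, kcnn4.L, kcnv2.S and scn3b.S, each with few reads in every library. A further 42 genes with matching symbols were held only by the larger count table, where the highest value in any library was 2.53 CPM (counts scaled to the size of the library), of kcnv2.L. The libraries came from pools of 15 wild-type whole tadpoles of Xenopus laevis, the African clawed frog, at NF stage 35, with 3 libraries in each group: thioridazine (90 µM) in large cohorts of 300 embryos, thioridazine in small cohorts of 100, untreated controls in large cohorts and untreated controls in small cohorts. Thioridazine is a phenothiazine antipsychotic that acts on dopamine receptors and also blocks several potassium channels, among them the ERG channel of the heart. The labels give an exposure from stage 12.5 to 35, while the methods of the study describe an earlier end to the exposure. Nothing in the labels ties a pool to a single mother. The methods of the study describe embryos of separate mothers mixed before division, while its results place each experiment in a single clutch. The p-values therefore measure the spread between pools of tadpoles. The reporting summary of the study describes every experiment as independently repeated over several weeks, and its methods give 3 repeats of a pooled sample. Neither says whether the 3 pools of a group shared a dish. Spread between dishes may be missing from the p-values. Because whole tadpoles were sequenced, fewer cells of a type and less RNA per cell cannot be told apart in any value given here.

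Voltage-gated channels open when the membrane depolarises. Sodium channels carry the upstroke of the action potential, calcium channels couple it to contraction and to transmitter release, and potassium channels end it. Other potassium channels set the resting potential: inward rectifiers and two-pore leak channels pass potassium at rest, and calcium-activated channels follow the calcium inside the cell. A pore subunit works together with accessory subunits, which set how much channel reaches the membrane and how fast it opens and closes. X. laevis is an allotetraploid, so that many genes are present as a .L copy and a .S copy (homeologs). Reads of near-identical copies were shared out by estimation, and the split between the copies is uncertain. No sequences were used here, and gene lengths were not at hand, so levels are compared between groups and not between genes.

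The libraries held 4887343 to 7497662 estimated counts, and 3 counts correspond to 0.400 to 0.614 CPM, so genes near 1 or 2 CPM were measured with few reads. The neuronal and skeletal muscle markers were present in every library, as whole tadpoles should have them. The study describes an adjustment for batch and for 2 surrogate variables. The labels do not give the batch, so it was not modelled here. The 2 surrogate variables are directions of variation estimated from the data, meant to capture unwanted variation. Whether they do so here was not tested. The first lay close to the treatment itself, with 68.0% of its variance between treatments. Thioridazine small-cohort library 1, at -0.624, and thioridazine large-cohort library 2, at -0.426, stood apart on it, while the control libraries lay between 0.151 and 0.305. With the surrogate variables the median standard error of the log2 change by thioridazine over the channel genes was 0.305, against 0.161 without them. Both fits are therefore given.

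Across both cohort sizes, thioridazine did not change any channel gene past the threshold in the model with surrogate variables (limma, adjusted p under 0.05 over all genes). Of the 119 channel genes 0 were called, where 0.25% of all genes were. At an unadjusted p under 0.05, 7 channel genes passed, 4 higher and 3 lower, where 7.07% of all genes passed. edgeR and DESeq2 with the same surrogate variables also called 0 channel genes, where they called 0.294% and 0.297% of all genes. The median log2 change of the channel genes was -0.063, against -0.003 over all genes tested. Among the smallest p-values in the upward direction were those of kcnq1.L, cacna1f.L and kcnk6.S. Among those in the downward direction were cacng7.L, cacna1a.S, kcnj15.S and scn1a.S.

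Without surrogate variables, 17 of 119 channel genes were lower in thioridazine, where 5.14% of all genes were called lower, and 2 were higher, where 3.9% of all genes were called higher. Of the 17 genes that fell, 10 have calcium channel symbols, 4 of them gamma family genes whose products are known as partners of glutamate receptors, 6 are potassium channel genes and 1 is scn1a.S. The genes that rose were both homeologs of kcnq1, but kcnq1.L passed in only 2 and kcnq1.S in 6 of the 12 fits that left out 1 library. Some genes that fell also passed in few of these fits, among them kcnab2.L in 2, cacnb2.L in 3, cacng7.S in 4 and cacna1d.L in 5. The median log2 change was -0.224, against 0.005 over all genes tested, and 97 channel genes lay below 0 and 22 above. edgeR without surrogate variables called 20 channel genes (9.77% of all genes) and DESeq2 called 11 (7.94%). All 6 thioridazine libraries lay below all 6 control libraries for 9 channel genes, which is 7.56% of them, against 2.74% of all genes. For 0 channel genes did they all lie above, against 2.09% of all genes. Leaving out both libraries that stood apart, a fit without surrogate variables called 6 channel genes lower and 1 higher, where it called 2.51% and 2.09% of all genes, and the median was -0.180. The higher gene was kcnq1.L (limma adjusted p = 0.0394), while kcnq1.S did not pass in that fit (adjusted p = 0.0968).

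**Figure D1:**
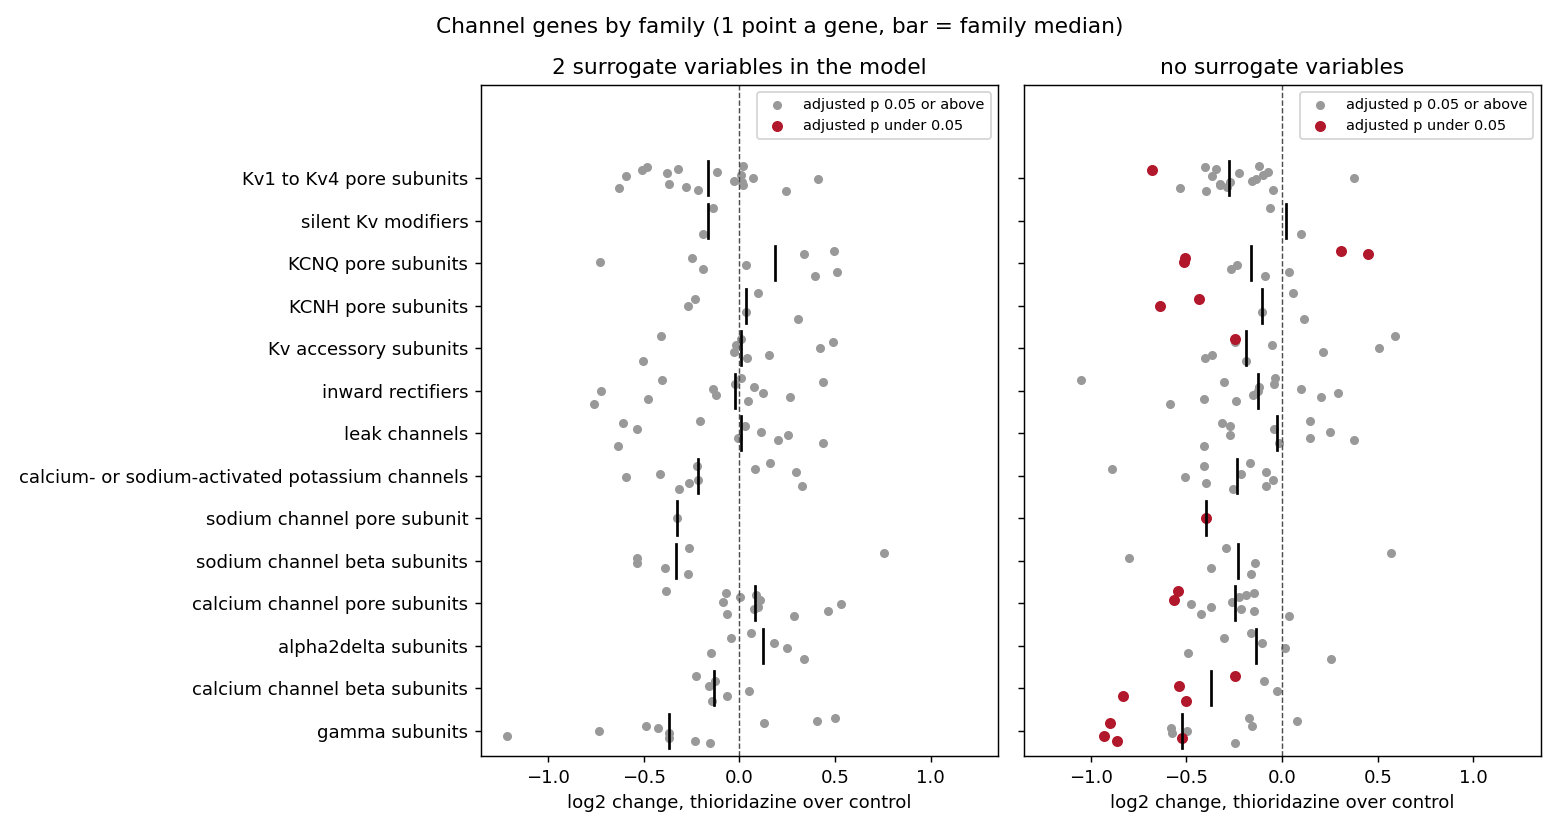
The log2 change of the channel genes tested, HCN genes aside, thioridazine over control across both cohort sizes, by family, from the model with 2 surrogate variables on the left and from the model without them on the right. Red points passed an adjusted p of 0.05 and black bars are family medians. On the left 0 genes passed, and on the right 17 passed below 0 and 2 above.

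The families are described next by the comparison across both cohort sizes, starting with the calcium channel genes. For each family count, the background without surrogate variables was 12516 of 25553 genes below 0 and 5.14% of all genes called lower. The pore subunits (cacna1) had 12 members tested, and 11 lay below 0 without surrogate variables, of which 2 passed. The first was cacna1a.S, the pore of the P/Q-type channel that triggers transmitter release at synapses. It had 29.4, 25.4 and 22.5 CPM in thioridazine large cohorts and 24.0, 24.4 and 32.0 CPM in thioridazine small cohorts, against 40.0, 35.5 and 38.7 CPM in control large cohorts and 41.8, 34.7 and 40.0 CPM in control small cohorts. Every thioridazine library lay below every control library. Its log2 change was -0.55 ± 0.09 (SE) without surrogate variables (limma adjusted p = 0.00189) and -0.38 ± 0.17 with them (adjusted p = 0.682). Without the libraries that stood apart and without surrogate variables it was -0.51 (adjusted p = 0.00959).

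The second was cacna1d.L, the pore of an L-type channel of neurons, sensory cells and the heart. It had 7.64 to 15.2 CPM in thioridazine libraries and 14.0 to 21.9 CPM in control libraries, with a log2 change of -0.56 ± 0.15 without surrogate variables (adjusted p = 0.0303). With surrogate variables the change was 0.11 ± 0.23, so the sign turned. The retinal L-type pore gene cacna1f.L also turned sign. It had 11.7, 5.55 and 9.73 CPM in thioridazine large cohorts and 4.96, 10.3 and 10.9 CPM in thioridazine small cohorts, against 13.2, 11.3 and 10.8 CPM in control large cohorts and 13.1, 12.8 and 10.5 CPM in control small cohorts. Both libraries that stood apart had its lowest values. The log2 change was 0.53 ± 0.23 with surrogate variables (adjusted p = 0.669) and -0.48 ± 0.19 without them (adjusted p = 0.137). cacna1s.S, the pore of the skeletal muscle channel that senses voltage for contraction, had 85.6 to 130 CPM in thioridazine libraries and 97.5 to 133 CPM in control libraries, and the groups overlapped.

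The calcium channel beta subunits (cacnb), which bring the pore to the membrane, had 6 members, all below 0 without surrogate variables, and 4 passed. cacnb1.L, the beta subunit of skeletal muscle, had 34.3, 31.6 and 29.9 CPM in thioridazine large cohorts and 37.2, 37.8 and 34.5 CPM in thioridazine small cohorts, against 42.4, 39.4 and 41.4 CPM in control large cohorts and 38.0, 40.1 and 40.6 CPM in control small cohorts. The treatments did not overlap, and the gap was narrow in the small cohorts. This gave a log2 change of -0.24 ± 0.06 without surrogate variables (adjusted p = 0.0213) and -0.23 ± 0.12 with them (adjusted p = 0.766). Its homeolog cacnb1.S overlapped between the treatments, with 37.0 to 47.7 CPM in thioridazine libraries and 40.2 to 51.7 CPM in control libraries. cacnb2.L, a subunit of cardiac L-type channels, changed by -0.54 ± 0.16 without surrogate variables (adjusted p = 0.0468). cacnb3.L and cacnb3.S, which serve mostly neuronal channels, changed by -0.83 ± 0.21 and -0.50 ± 0.12 without surrogate variables (adjusted p = 0.0224 and 0.0175). With surrogate variables cacnb2.L, cacnb3.L and cacnb3.S had -0.16, -0.06 and -0.14.

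The gamma family (cacng) holds subunits of muscle calcium channels and the TARP proteins, which carry AMPA-type glutamate receptors to synapses and hold them there. Of its 11 members, 10 lay below 0 without surrogate variables and 4 passed, all of them TARP genes: cacng3.L, cacng7.L, cacng7.S and cacng8.L. cacng8.L had 6.73, 3.08 and 4.45 CPM in thioridazine large cohorts and 3.25, 4.02 and 4.22 CPM in thioridazine small cohorts, against 8.88, 8.05 and 7.76 CPM in control large cohorts and 8.22, 7.12 and 6.29 CPM in control small cohorts. One thioridazine large-cohort library overlapped the lowest control library. In log2 terms the change was -0.86 ± 0.17 without surrogate variables (adjusted p = 0.00618) and -0.23 ± 0.30 with them (adjusted p = 0.934).

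cacng7.L had 1.44, 1.70 and 2.61 CPM in thioridazine large cohorts and 2.76, 2.28 and 1.86 CPM in thioridazine small cohorts, against 4.10, 5.26 and 3.15 CPM in control large cohorts and 3.89, 4.04 and 3.36 CPM in control small cohorts. It was low in all libraries, and the treatments did not overlap. Its log2 change was -1.22 ± 0.43 with surrogate variables (adjusted p = 0.518) and -0.93 ± 0.21 without them (adjusted p = 0.0116). The other copy, cacng7.S, changed by -0.53 ± 0.14 without surrogate variables (adjusted p = 0.0266) and by -0.37 ± 0.25 with them. cacng3.L turned sign, with -0.90 ± 0.23 without surrogate variables (adjusted p = 0.023) and 0.13 ± 0.37 with them, and its lowest value, 1.39 CPM, was in thioridazine large-cohort library 2. The muscle subunit cacng1.L overlapped between the treatments, with 8.02 to 15.4 CPM in thioridazine libraries and 11.4 to 17.5 CPM in control libraries. Among the 6 alpha2delta genes (cacna2d), which encode the outer subunit that stabilises the pore, 0 passed in either fit, and cacna2d2.L had 49.6 to 84.8 CPM in thioridazine libraries and 67.6 to 90.3 CPM in control libraries. Its homeolog cacna2d2.S had 35.8 to 50.1 CPM in thioridazine libraries and 39.2 to 54.4 CPM in control libraries.

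By product name, further sodium channel pore genes are held under placeholder (LOC) symbols that the rule does not reach. The rule found 1 sodium channel pore gene, scn1a.S, whose product carries sodium current in neurons and which does not stand for the others. It had 29.0, 26.8 and 27.1 CPM in thioridazine large cohorts and 24.8, 27.9 and 25.8 CPM in thioridazine small cohorts, against 31.4, 40.3 and 39.4 CPM in control large cohorts and 38.5, 36.3 and 29.7 CPM in control small cohorts. The treatments did not overlap, although 1 control library of each cohort size lay close to the thioridazine libraries. The log2 change was -0.40 ± 0.09 without surrogate variables (adjusted p = 0.00992) and -0.33 ± 0.16 with them (adjusted p = 0.723). Among the 6 beta subunit genes tested, 5 lay below 0 and 0 passed in either fit across both cohort sizes. scn4b.L, a beta subunit that shapes the resurgent sodium current, had 10.3 to 15.3 CPM in thioridazine libraries and 12.5 to 19.5 CPM in control libraries, and within large cohorts it passed without surrogate variables (-0.68, adjusted p = 0.0443).

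KCNQ channels are slow potassium channels. KCNQ1 works with KCNE subunits in the heart and in epithelia, and KCNQ3 takes part in the M-current that restrains firing in neurons. By symbol 8 kcnq genes were tested. kcnq1.L had 34.3, 26.7 and 29.1 CPM in thioridazine large cohorts and 31.3, 33.1 and 34.8 CPM in thioridazine small cohorts, against 24.1, 23.5 and 26.5 CPM in control large cohorts and 30.4, 22.5 and 26.7 CPM in control small cohorts. The treatments did not overlap within either cohort size, and 1 control small-cohort library, at 30.4 CPM, lay among the thioridazine libraries of large cohorts. This gave a log2 change of 0.50 ± 0.15 with surrogate variables (limma adjusted p = 0.325) and 0.31 ± 0.09 without them (adjusted p = 0.0407). kcnq1.S had 10.4, 12.8 and 10.6 CPM in thioridazine large cohorts and 9.21, 8.81 and 10.8 CPM in thioridazine small cohorts, against 6.75, 5.66 and 6.90 CPM in control large cohorts and 9.69, 9.63 and 7.59 CPM in control small cohorts. The large cohorts were far apart and the small cohorts overlapped. In log2 terms the change was 0.34 ± 0.22 with surrogate variables (adjusted p = 0.817) and 0.45 ± 0.12 without them (adjusted p = 0.0274).

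kcnq3.S lay lower in every thioridazine library, with 6.98 to 9.90 CPM, against 10.1 to 11.2 CPM in controls, and did not pass in either fit (adjusted p = 0.0924 without surrogate variables). Its homeolog kcnq3.L had 8.10 to 10.9 CPM in thioridazine libraries and 9.28 to 11.9 CPM in control libraries. The kcnq5 genes overlapped between treatments, with 2.16 to 4.68 CPM for kcnq5.L in thioridazine libraries and 2.86 to 4.47 CPM in control libraries, and with 1.00 to 1.96 CPM for kcnq5.S in thioridazine libraries and 0.902 to 2.37 CPM in control libraries. Among the KCNE subunits, kcne1.L had 2.12 to 4 CPM in thioridazine libraries and 1.24 to 3.34 CPM in control libraries. kcne4.S had 2.12 to 2.94 CPM in thioridazine libraries and 1.42 to 3.06 CPM in control libraries. kcne5.L had 5.35 to 11.7 CPM in thioridazine libraries and 10.1 to 12.4 CPM in control libraries. None of these 3 KCNE genes passed in either fit.

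**Figure D2:**
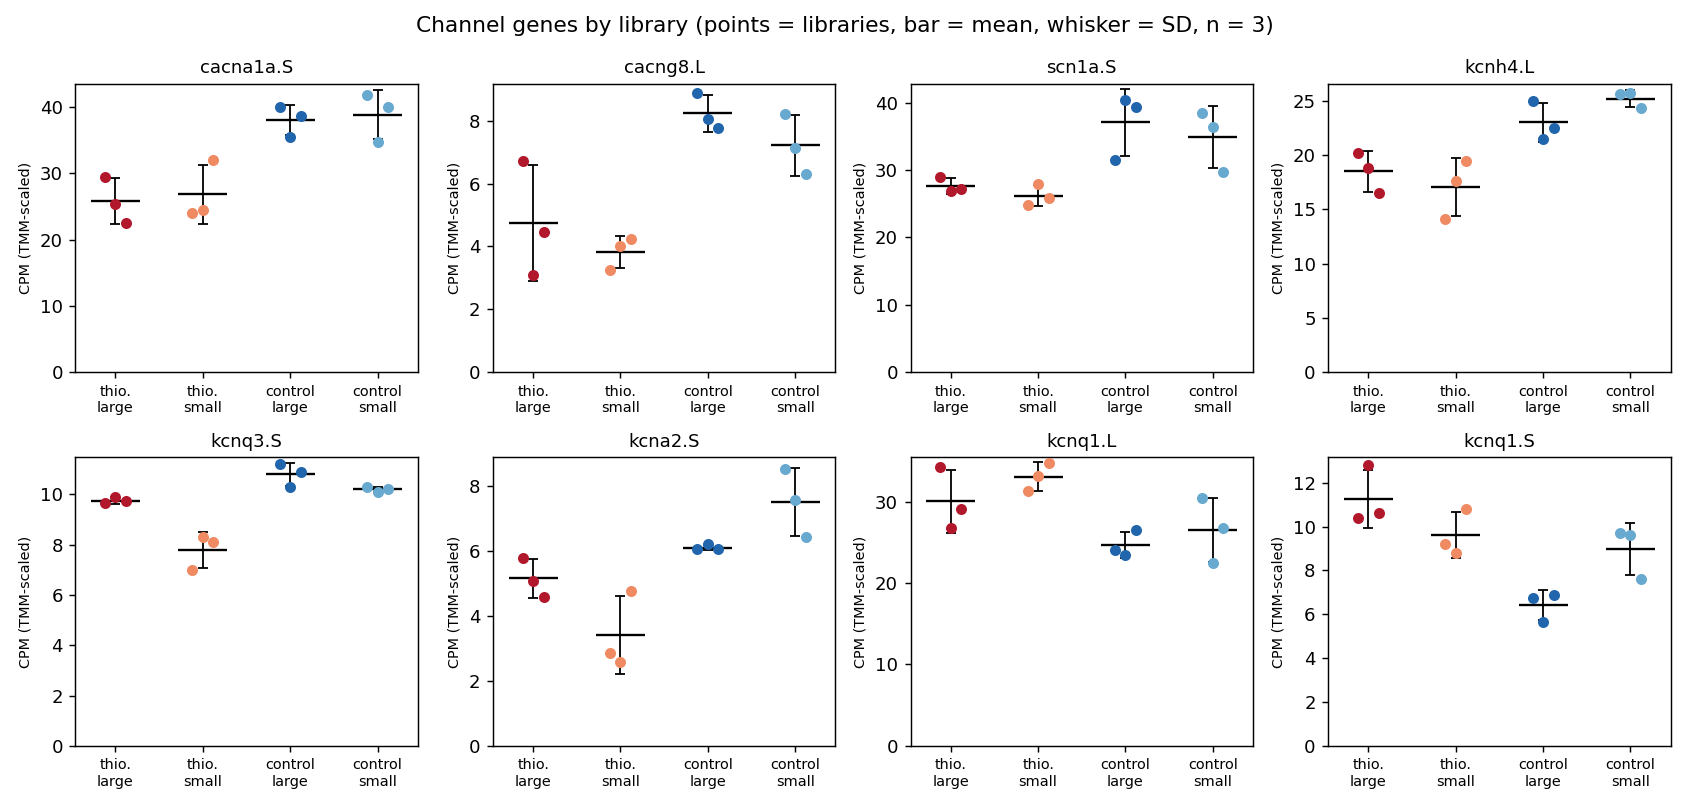
TMM-scaled CPM of 8 channel genes in the 12 libraries, with thioridazine (thio.) large and small cohorts left of control large and small cohorts. Points are libraries, bars are means and whiskers are SD (n = 3). For cacna1a.S every thioridazine library, at most 32.0 CPM, lies below every control library, at least 34.7 CPM, and for kcnq1.S the thioridazine large cohorts, at 10.4 to 12.8 CPM, lie above the control large cohorts, at 5.66 to 6.90 CPM.

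The KCNH genes encode the EAG, ERG and ELK potassium channels. The ERG pore KCNH2 repolarises the heart, and phenothiazines such as thioridazine block it. By symbol the rule found 5 KCNH genes, and these belong to the EAG (kcnh5) and ELK (kcnh3, kcnh4) branches. kcnh4.L had 20.2, 18.8 and 16.5 CPM in thioridazine large cohorts and 14.1, 17.6 and 19.4 CPM in thioridazine small cohorts, against 25.0, 21.5 and 22.5 CPM in control large cohorts and 25.6, 25.7 and 24.3 CPM in control small cohorts. Every thioridazine library lay below every control library. In log2 terms the change was -0.43 ± 0.09 without surrogate variables (adjusted p = 0.0068) and -0.23 ± 0.16 with them (adjusted p = 0.829). kcnh4.S had 4.67, 2.93 and 3.47 CPM in thioridazine large cohorts and 2.86, 3.26 and 3.28 CPM in thioridazine small cohorts, against 6.57, 7.22 and 5.28 CPM in control large cohorts and 4.38, 4.61 and 4.57 CPM in control small cohorts. One thioridazine library overlapped the controls, and the log2 change was -0.64 ± 0.16 without surrogate variables (adjusted p = 0.0212) and -0.27 ± 0.31 with them (adjusted p = 0.928).

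The remaining KCNH genes of the rule did not pass in either fit. kcnh3.L had 1.39 to 3.72 CPM in thioridazine libraries and 1.51 to 2.71 CPM in control libraries, with a log2 change of 0.10 ± 0.39 with surrogate variables. kcnh5.L had 1.91 to 2.99 CPM in thioridazine libraries and 1.86 to 3.56 CPM in control libraries, with a log2 change of 0.04 ± 0.41. kcnh5.S had 2.26 to 3.92 CPM in thioridazine libraries and 2.07 to 3.43 CPM in control libraries, with a log2 change of 0.31 ± 0.41. These 3 genes were measured with few reads.

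The ERG genes themselves are held under placeholder symbols that the rule does not reach. By product name, 74 further channel genes with placeholder symbols passed the filter, 12 of them KCNH genes, a list that was chosen after the tables had been seen. With surrogate variables 0 of the 74 passed. Without them 11 of the 74 were lower and 1 higher, where 5.14% and 3.9% of all genes were, and the median log2 change was -0.28, against 0.005 over all genes tested. The gene named as KCNH2 (LOC108704616) had 22.3, 17.8 and 20.7 CPM in thioridazine large cohorts and 21.2, 21.8 and 21.1 CPM in thioridazine small cohorts, against 31.2, 27.2 and 27.5 CPM in control large cohorts and 29.4, 32.0 and 33.2 CPM in control small cohorts. Every thioridazine library lay below every control library, and the log2 change was -0.53 ± 0.08 without surrogate variables (limma adjusted p = 0.000676) and -0.36 ± 0.15 with them (adjusted p = 0.614). A second gene named as KCNH2 (LOC108719641) had 3.76 to 6.86 CPM in thioridazine libraries and 2.91 to 4.83 CPM in control libraries, and its log2 change was 0.14 ± 0.16 without surrogate variables (adjusted p = 0.673). One of the genes named as KCNH8 (LOC108718920) also passed without surrogate variables, with -1.02 ± 0.22 (adjusted p = 0.00902). The other genes named as KCNH8 and those named as KCNH1 overlapped between the treatments. For KCNH8, LOC108702284 had 3.32 to 4.75 CPM in thioridazine libraries and 2.25 to 4.55 CPM in control libraries. LOC108701858 had 2.12 to 3.89 against 3 to 4.56 CPM, and LOC108719687 had 0.942 to 2.12 against 1.38 to 3.13 CPM. For KCNH1, LOC108717389 had 2.87 to 3.94 against 2 to 3.43 CPM, and LOC121393600 had 1.86 to 3.45 against 2.26 to 2.92 CPM. The genes named as KCNH6 and KCNH7 did not pass in either fit.

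**Figure D3:**
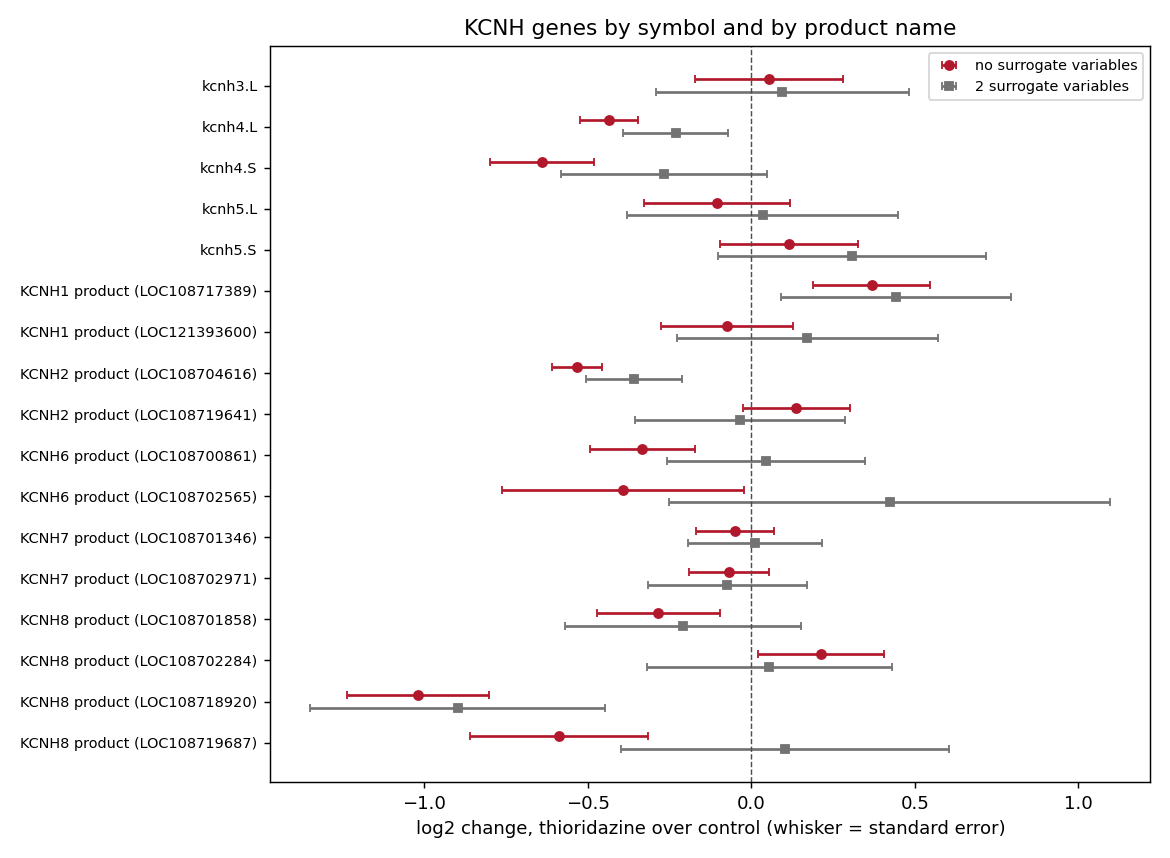
The log2 change, thioridazine over control across both cohort sizes, of 5 KCNH genes found by symbol and 12 found by product name, with standard errors. Circles are from the model without surrogate variables and squares from the model with 2. kcnh4.L, kcnh4.S, one KCNH2 product and one KCNH8 product lie below 0 in both models and passed an adjusted p of 0.05 only without surrogate variables.

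The Kv1 to Kv4 pore genes carry the fast potassium currents that end the action potential. Of 18 tested, 17 lay below 0 without surrogate variables and 1 passed, a count near the 5.14% of all genes called lower. This was kcna2.S, an axonal channel, with 5.77, 5.08 and 4.59 CPM in thioridazine large cohorts and 2.86, 2.58 and 4.77 CPM in thioridazine small cohorts, against 6.05, 6.2 and 6.04 CPM in control large cohorts and 8.52, 7.56 and 6.42 CPM in control small cohorts. The treatments did not overlap, and the lowest libraries were of thioridazine small cohorts. The log2 change was -0.68 ± 0.16 without surrogate variables (adjusted p = 0.0156) and -0.51 ± 0.32 with them (adjusted p = 0.808). kcna4.S, an A-type channel, had 52.9 to 78.4 CPM in thioridazine libraries and 64.7 to 75.2 CPM in control libraries, and kcna5.L had 4 to 7.55 CPM in thioridazine libraries and 4.27 to 9.09 CPM in control libraries, both with overlap. Of the 9 accessory genes, kcnab2.L, a cytoplasmic beta subunit of Kv1 channels, passed without surrogate variables (-0.25 ± 0.07, adjusted p = 0.0453). With surrogate variables it had 0.01 ± 0.12. The regulator kcnrg.L had 1.99 to 3.55 CPM in thioridazine libraries and 2.56 to 4.11 CPM in control libraries, and the silent subunit gene kcnf1.L had 2.61 to 3.32 CPM in thioridazine libraries and 2.27 to 4.24 CPM in control libraries.

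Across both cohort sizes, no gene found by symbol among the channels of the resting potential passed in either fit. Among 13 inward rectifiers (kcnj) and 10 leak channels (kcnk), 10 and 6 lay below 0 without surrogate variables. kcnj2.S, which stabilises the resting potential of muscle, had 51.3, 53.6 and 47.4 CPM in thioridazine large cohorts and 42.6, 46.1 and 49.6 CPM in thioridazine small cohorts, against 36.2, 38.1 and 40.4 CPM in control large cohorts and 43.1, 44.3 and 52.9 CPM in control small cohorts. It was higher in each thioridazine large-cohort library than in each control large-cohort library, and the small cohorts overlapped. Within large cohorts it passed without surrogate variables (0.41, adjusted p = 0.0453). kcnj15.S had the smallest p-value of the rectifiers, with 3.13 to 7.06 CPM in thioridazine libraries and 3.86 to 6.70 CPM in control libraries and a log2 change of -0.72 ± 0.34 with surrogate variables (adjusted p = 0.71), against -0.13 ± 0.20 without them. The leak channel gene kcnk6.S had 0.44 ± 0.21 with surrogate variables (adjusted p = 0.707) and -0.02 ± 0.13 without them. kcnk5.S overlapped as well, with 13.9 to 18.5 CPM in thioridazine libraries and 13.1 to 18.2 CPM in control libraries. By product name, a placeholder gene that the rule does not reach (LOC108704331) is a further inward rectifier potassium channel 2. It had 73.3 to 92.3 CPM in thioridazine libraries and 62.5 to 70.1 CPM in control libraries, without overlap in either cohort size. This gene was picked after its values had been seen. The other inward rectifier genes with placeholder symbols overlapped between the treatments.

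All 10 calcium- or sodium-activated potassium channel genes tested lay below 0 without surrogate variables, and 0 passed. kcnma1.L, the large-conductance BK channel, had 27.7 to 38.3 CPM in thioridazine libraries and 35.6 to 40.6 CPM in control libraries. kcnn3.L, a small-conductance channel, had 2.43 to 4.47 CPM in thioridazine libraries and 4.27 to 5.78 CPM in control libraries.

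Within small cohorts, thioridazine changed 0 of 119 channel genes past the threshold in the model with surrogate variables, where 0.16% of all genes were called, and 7 passed an unadjusted p under 0.05, where 6.1% of all genes did. Among the smallest p-values were those of kcnq1.L (0.50), cacna1f.L (0.62) and kcna6.S (0.82) above 0 and of kcna2.S (-0.92), kcnj15.S (-0.85), cacng7.L (-1.07) and scn3b.L (-0.61) below 0, all as log2 changes. Without surrogate variables 5 were lower, where 1.51% of all genes were called lower, namely cacna1a.S, cacnb3.S, kcna2.S, kcnab2.L and kcnh4.L, and 0 were higher, where 1.31% were. The 3 thioridazine libraries lay below the 3 controls for 34 channel genes, or 28.6%, against 11.1% of all genes, and above them for 5, or 4.2%, against 10.6%.

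Within large cohorts, 0 of 119 channel genes were called with surrogate variables, where 0.223% of all genes were, and 8 passed an unadjusted p under 0.05, where 8.63% did. Among the smallest p-values were those of kcnj2.S (0.43), kcnq1.L (0.49), kcnq1.S (0.66), kcnk6.S (0.45) and cacna2d2.L (0.27) above 0 and of cacng7.L (-1.37), scn4b.L (-0.69), cacnb1.L (-0.35) and cacna1a.S (-0.44) below 0. Without surrogate variables 3 were lower, where 1.31% of all genes were, namely cacna1a.S, cacnb1.L and scn4b.L, and 2 were higher, kcnq1.S and kcnj2.S, where 0.927% of all genes were. The thioridazine libraries lay below the controls for 31 channel genes, or 26.1%, against 12.1% of all genes, and above them for 4, or 3.36%, against 11.6%. Without surrogate variables the medians of the channel genes were -0.213 in large cohorts and -0.242 in small cohorts.

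The difference between the cohort sizes in the effect of thioridazine was tested as an interaction. Of the channel genes 0 were called with surrogate variables, where 0.0744% of all genes were, and 8 passed an unadjusted p under 0.05, where 7.59% did. The smallest p-values were those of kcnab2.L (0.38), kcnq1.S (0.65) and kcnj2.S (0.34), whose changes lay higher in large cohorts, and of kcnh3.L (-1.13), scn4b.L (-0.60) and kcna6.S (-0.83), whose changes lay lower there, with adjusted p-values of 0.522 or above. Without surrogate variables 0 channel genes were called, where 0.0196% of all genes were.

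Cohort size was also compared within each treatment. In controls, large against small cohorts gave 0 called channel genes with surrogate variables, where 0.294% of all genes were called, and 8 at an unadjusted p under 0.05, where 9.41% were. All 8 lay below 0, while of the 25553 genes tested 1415 lay above 0 and 989 below at that p. The smallest p-values were those of cacna2d2.L (-0.35, adjusted p = 0.219), cacna1c.S (-0.38) and kcnj2.S (-0.27) below 0 and of kcnh4.S (0.45), kcnab3.S (0.62) and kcnj3.L (0.35) above 0. In thioridazine, large against small cohorts gave 0, where 0.0939% of all genes were called, and 8 at an unadjusted p under 0.05, where 7.33% were. The smallest p-values were those of kcnh3.L (-1.01, adjusted p = 0.417), kcna6.S (-0.66) and cacnb3.L (-0.80) below 0 and of kcnk1.L (0.47), kcnn1.L (0.69) and kcnrg.L (0.66) above 0. Libraries did not overlap between cohort sizes in controls for 5 channel genes higher and 10 lower, where 8.45% and 7.6% of all genes did not overlap, and in thioridazine for 5 higher and 4 lower, where 5.44% and 5.27% did not.

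For 40 channel genes both homeologs were tested. Without surrogate variables, both copies lay below 0 for 28 pairs, both lay above 0 for 1 pair, kcnq1, and the copies differed in sign for 11. With surrogate variables the counts were 13, 8 and 19. Without them 97 of the 119 channel genes lay below 0, so many pairs of unrelated channel genes would also have both below 0. Whether the copies of a pair shared a sign more often than that was not tested. Among the pairs with both copies past the threshold without surrogate variables were kcnq1, kcnh4, cacnb3 and cacng7. Over all pairs the median size of the difference between the copies was 0.24 on the log2 scale without surrogate variables, and whether the copies of a pair differed was not tested.

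**Figure D4:**
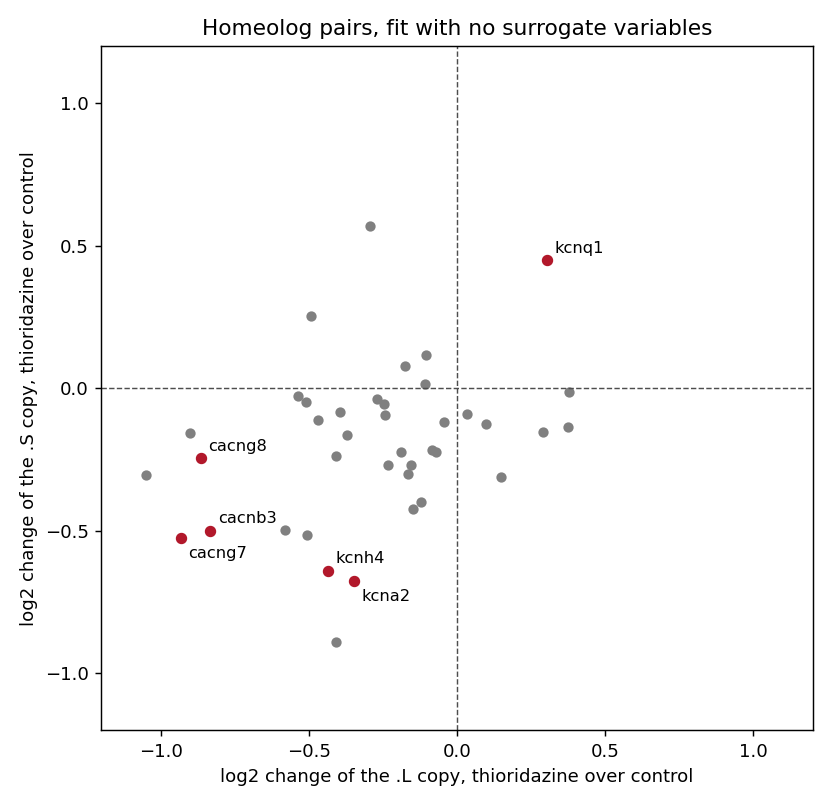
The log2 change of the .L copy against that of the .S copy, thioridazine over control across both cohort sizes, for 40 homeolog pairs of channel genes in the model without surrogate variables. The lower left area, with both copies below 0, holds 28 pairs, and kcnq1 is the single pair with both above 0. Red points are the pairs that carry a label.

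Markers of neurons and photoreceptors moved with the channel genes. The summed level of the neuron markers was 1220 to 1456 CPM in thioridazine libraries and 1657 to 1842 CPM in control libraries, and that of the photoreceptor markers, rhodopsin among them, was 146.8 to 288.6 CPM in thioridazine libraries and 381.8 to 603.9 CPM in control libraries. Neither pair of ranges overlapped. Without surrogate variables 19 of 28 neuron markers and 11 of 11 photoreceptor markers fell, with median log2 changes of -0.458 and -1.416, where 5.14% of all genes fell and the median over all genes was 0.005. With surrogate variables 0 of either list passed, and the medians were -0.294 and -0.117. The part of these cell types in the lower channel values was not tested. Skeletal muscle markers summed to 12880 to 18150 CPM in thioridazine libraries and 13730 to 16740 CPM in control libraries, and heart markers to 197.2 to 269.8 CPM in thioridazine libraries and 199 to 255.7 CPM in control libraries, both with overlap. Markers of epidermis and ionocytes summed to 1312 to 1894 CPM in thioridazine libraries and 1800 to 2440 CPM in control libraries, with overlap. Most of that sum came from itln1.L, at 878 to 1490 CPM in thioridazine libraries and 1370 to 2040 CPM in control libraries. Without surrogate variables itln1.L and atp6v1a.S fell (-0.49 and -0.17, limma adjusted p = 0.00266 and 0.0361). The other genes of that list did not pass. Glial markers summed to 502.4 to 714.7 CPM in thioridazine libraries and 505.8 to 565 CPM in control libraries, and red blood cell markers to 375.4 to 424.4 CPM in thioridazine libraries and 237.2 to 523 CPM in control libraries. Without surrogate variables acta1.L of the muscle list, a gene of few reads, fell (-1.21, limma adjusted p = 0.014). In that fit nkx2-5.S of the heart list and fabp7.L of the glial list rose (0.62 and 0.45, adjusted p = 0.0387 and 0.00846). The channel genes found by symbol summed to 1208 to 1426 CPM in thioridazine libraries and 1398 to 1519 CPM in control libraries. These ranges overlapped slightly. The 74 placeholder channel genes summed to 734.5 to 815 CPM in thioridazine libraries and 853.9 to 929.2 CPM in control libraries, without overlap.

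**Figure D5:**
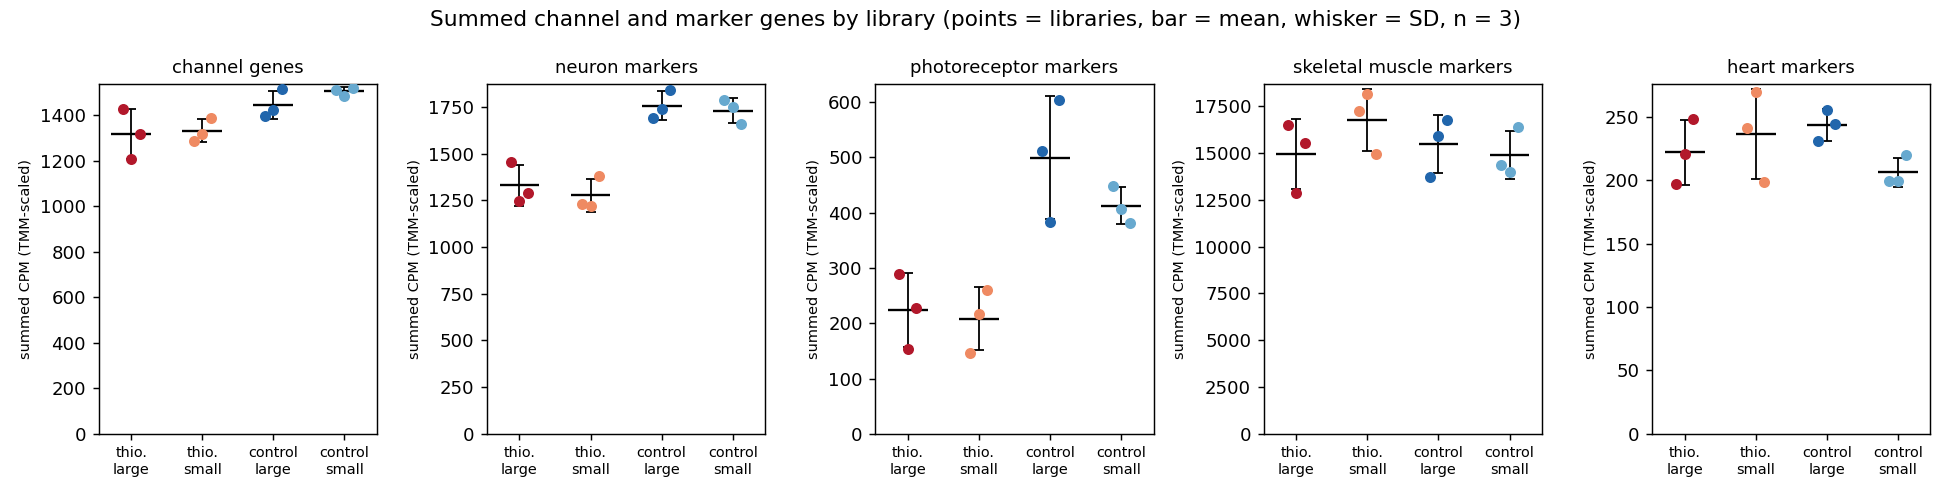
Summed TMM-scaled CPM of the channel genes and of 4 marker lists in each library, with thioridazine (thio.) left of control. Points are libraries, bars are means and whiskers are SD (n = 3). The neuron and photoreceptor sums of thioridazine libraries lie below those of all control libraries, at most 1456 against at least 1657 CPM and at most 288.6 against at least 381.8 CPM, while the muscle and heart sums overlap.

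Other genes of ion transport were followed as 6 lists. With surrogate variables 0 genes of these lists passed. Without them 5.14% of all genes fell and 3.9% rose. In that fit, 11 of 28 channel partners and scaffolds fell and 0 rose, among them dpp10.L and dpp10.S, partners of Kv4 channels, at -0.50 and -0.64, and unc79.L, unc80.L and nalcn.S of the sodium leak channel complex, at -0.27, -0.31 and -0.50. Of 20 calcium pumps and exchangers 5 fell and 0 rose, 4 of them plasma membrane calcium pumps, with atp2b3.L at -0.48 (adjusted p = 0.00393). Of 22 genes of calcium release and store-operated entry 3 fell and 0 rose, with jph4.S, a junctophilin of neurons, at -1.06. Of 17 sodium pump and FXYD genes 3 fell and 3 rose, with the widely used subunit atp1b1.L at 0.34 (adjusted p = 0.00374). Of 37 other cation channels 3 fell and 2 rose, and of 33 chloride channels 1 fell and 0 rose, counts that lie near or below the shares of all genes. These named genes were chosen after their values had been seen.

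The counts of called channel genes depended on single libraries, as did the shares of all genes called. With surrogate variables, 7 channel genes were called without thioridazine small-cohort library 1 (5.69% of all genes), 24 without thioridazine small-cohort library 3 (12.5%) and 3 without thioridazine large-cohort library 2 (3.62%). Without surrogate variables, the count of lower genes, 17 with every library, was 11 without thioridazine small-cohort library 1 (3.51% of all genes lower), 8 without thioridazine large-cohort library 2 (3.33%) and 9 without control large-cohort library 1 (3.73%), against 5.14% of all genes with every library. Among the genes that passed in each of the 12 fits without surrogate variables that left out 1 library were cacna1a.S, cacnb3.S, cacng7.L, cacng8.L, kcna2.S, kcnh4.L and scn1a.S. Of these, cacnb3.S and kcna2.S did not pass when both libraries that stood apart were left out (limma adjusted p = 0.0944 and 0.0714).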

How the data were processed

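Each library was rRNA-depleted RNA of pooled tadpoles, sequenced from one end. The authors trimmed the reads with fastp, removed rRNA with Bowtie2 and samtools, aligned with STAR and deposited RSEM expected counts (42638 genes) and a voom log2 CPM table (26050 genes). For the build, the versions and the use of strand: not given in the sources used here. From the counts, the deposited log2 table was reproduced to within 4.97e-14. Genes over 1.8 CPM in at least 3 libraries (25553) were scaled by TMM and fitted with voom and limma 3.58.1 in R 4.3.3 over all 12 libraries, with 2 surrogate variables from sva 3.50.0 and Benjamini-Hochberg adjustment over all genes. That count of genes differs from the one in the methods of the study, for a reason not found here. edgeR 4.0.16 and DESeq2 1.42.0 used rounded counts. CPM in the text are TMM-scaled. Scripts were tested on simulated data. No 2 libraries of the same group were duplicates (chi-square per degree of freedom 2.38 to 5.69), and pairs across groups were not checked. Alternatives were scaling, filters, tools, surrogate variables, replicate number as a block, and leaving out libraries.

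The genes named were all kcnh genes, kcnq and kcne genes that passed the filter, the genes with the smallest p-values in each comparison and direction (5 for thioridazine, 3 for the others), and in each family the gene with the highest mean and the one with the smallest p. Some genes that this rule names are not reported here, but the counts include them. Genes called without surrogate variables and homeologs were added after their values had been seen. The channel genes and all lists were chosen with earlier results of these data known.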

Additional observations from a re-analysis of the deposited data

How the results depend on the processing

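Of 1269 alternative values for named genes 1189 kept their direction and 80 did not, 45 of these on leaving out 1 library. With 2 surrogate variables 0 channel genes were called across cohort sizes (0.25% of all genes). Without them 19 were called (2 higher, 17 lower), against 9.04% of all genes. In small and in large cohorts 5 and 5 were called, against 2.81% and 2.24%. Fitting the compared libraries only gave 4 channel genes in large cohorts, and the share of all genes was not computed for that fit. Leaving out 1 library with 2 surrogate variables gave 0 to 24 called (0 to 1 higher, 0 to 23 lower). In these fits 0.13% to 12.5% of all genes were called. Within small cohorts they called 0 to 6 channel genes, against 0.0471% to 7.16% of all genes. Within large cohorts they called 0 to 5, against 0.13% to 4.84%. Without surrogate variables, DESeq2 called 0 channel genes higher and 11 lower, against 3.74% and 4.2% of all genes. No filter gave 1 higher and 15 lower, against 2.28% and 3.14%. Leaving out both libraries that stood apart (chosen after seeing the data) gave 1 higher and 6 lower, against 2.09% and 2.51%. Leaving out 1 library gave 0 to 2 higher, against 2.29% to 4.91%, and 8 to 21 lower, against 3.33% to 5.82% of all genes. The fit with 2 surrogate variables could not be fitted without control large-cohort library 3. The cause of these differences was not tested.

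Replicate numbers did not pair the libraries: over 18 pairs the correlation of deviations was -0.148 to 0.102, with a median of -0.024. With the replicate number as a block, 0 channel genes were called with 2 surrogate variables, against 0.254% of all genes. With the block and no surrogate variables 19 were called (2 higher, 17 lower), against 3.79% of all genes higher and 4.81% lower. In that fit 3 were called in small cohorts and 4 in large cohorts, against 2.09% and 2.05% of all genes.

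The log2 changes that turned sign were these, where the block is the replicate block without surrogate variables unless said. cacna1d.L across cohort sizes had -0.56 without surrogate variables, -0.57 with the block, -0.16 with no filter, -0.64 without both libraries that stood apart and -0.54 to 0.19 leaving out 1 library. cacna1f.L in small cohorts had -0.50 without surrogate variables, -0.49 with the block, -0.12 without both libraries that stood apart, -0.50 in the compared libraries only and -0.81 to 0.88 leaving out 1 library. cacna1f.L across cohort sizes had -0.48 without surrogate variables, -0.46 with the block, -0.11 without both libraries that stood apart and -0.58 to 0.75 leaving out 1 library. cacna2d2.L in large cohorts had -0.098 without surrogate variables, -0.084 with the block, -0.097 in the compared libraries only and -0.12 to 0.33 leaving out 1 library. cacnb2.L across cohort sizes had -0.64 to 0.28 leaving out 1 library. cacnb3.L across cohort sizes had -0.98 to 0.18 leaving out 1 library. cacnb3.S across cohort sizes had -0.57 to 0.073 leaving out 1 library. cacng3.L across cohort sizes had -0.90 without surrogate variables, -0.84 with the block, -0.26 with no filter, -0.15 without both libraries that stood apart and -1.03 to 0.57 leaving out 1 library. cacng8.L across cohort sizes had -0.91 to 0.039 leaving out 1 library. kcna6.S as the interaction had -1.04 to 0.087 leaving out 1 library. kcna6.S for large over small thioridazine cohorts had -0.92 to 0.20 leaving out 1 library. kcna6.S in small cohorts had -0.35 to 1.32 leaving out 1 library. kcnab2.L across cohort sizes had -0.25 without surrogate variables, -0.01 with the block and 2 surrogate variables, -0.25 with the block, -0.082 with no filter, -0.011 in the deposited table and -0.31 to 0.17 leaving out 1 library. kcnh3.L across cohort sizes had -0.017 without both libraries that stood apart and -0.041 to 0.48 leaving out 1 library. kcnh5.L across cohort sizes had -0.10 without surrogate variables, -0.093 with the block and 2 surrogate variables, -0.14 with the block, -0.044 by edgeR, -0.059 by DESeq2, -0.056 with no filter, -0.03 in the deposited table and -0.18 to 0.36 leaving out 1 library. kcnh5.S across cohort sizes had -0.028 to 0.69 leaving out 1 library. kcnj15.S in small cohorts had 0.40 without both libraries that stood apart. kcnj15.S across cohort sizes had 0.32 without both libraries that stood apart. kcnk6.S across cohort sizes had -0.015 without surrogate variables, -0.012 with the block and -0.088 to 0.61 leaving out 1 library.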
